A study of Homo sapiens with 3 samples.

Results

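The 10 genes described here make up the core of the human RNA interference and microRNA machinery: DROSHA, DGCR8, XPO5, DICER1, TARBP2, AGO1, AGO2, AGO3, AGO4 and TNRC6A. They were chosen by name, as genes that process or use hairpin RNA, and were found by matching their Entrez identifiers to RefSeq symbols among the 19266 genes of each table. All 10 had a row and all 10 passed the filter on low counts, as did 13580 genes in all. The cells were KYSE510, an established line from an esophageal squamous cell carcinoma, and the study screened for targets of a transcript named TCONS_02256997. The 3 groups were cells given lentivirus with shRNA#1 against that transcript (sh1), cells given lentivirus with shRNA#2 against it (sh2) and cells given lentivirus with a scrambled hairpin (control). All 3 were infected for 24 h and selected for 48 h with 4 µM puromycin in RPMI-1640 medium with serum. Every group therefore carried a virus-encoded hairpin, and no group without one was analysed here. No label says if the selected cells were a pool or a clone.

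In the nucleus, DROSHA and its double-stranded RNA-binding partner DGCR8 form the Microprocessor, which cuts hairpins out of primary microRNA transcripts. XPO5 carries the hairpins to the cytoplasm, where DICER1 with TARBP2 trims them to short duplexes. One strand of the duplex is loaded into an Argonaute protein, and TNRC6 proteins join Argonaute to the enzymes that remove the poly(A) tail and the cap of the target mRNA. A hairpin expressed from a lentivirus usually enters this path at the export step, so the same proteins that serve cellular microRNAs also serve an experimental shRNA.

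Each group was 1 sample, deposited as 3 numbered tables that were treated as 3 libraries (n = 3). The labels leave it unstated if these were cultures, libraries or sequencing runs of their own, so every SD, SE and adjusted p rests on a spread that may be purely technical. Total expected counts were 14660816 to 14770520 per library with sh1, 15759266 to 16092409 with sh2 and 15012939 to 15414567 in control. A floor of 3 counts equals 0.186 to 0.205 CPM on the raw library totals, before TMM scaling and for counting error only. Of the 8 squamous epithelium markers, all had counts, and their sum was 1710 to 1730 CPM with sh1, 1930 to 1960 CPM with sh2 and 2750 to 2780 CPM in control. KRT5 made up the largest share of that sum, and the members did not all go one way. By edgeR calls against control (adjusted p below 0.05), sh1 had 1 of the 8 higher and 5 lower. Among all tested genes, 34.7% were called higher and 34.6% lower in that comparison. For sh2, 3 of the 8 were called higher and 5 lower, beside 34.2% higher and 34.3% lower among all tested genes. SOX2 alone rose with both, at 49.8 CPM with sh1, 34.7 CPM with sh2 and 20.8 CPM in control on average. TP63 was lower with both, at 213 CPM with sh1, 232 CPM with sh2 and 518 CPM in control. KRT14 was lower too, at 8.14, 17.1 and 34.0 CPM in the same order. The leukocyte list was carried by CD68, with CD3E at no more than 1 count in a library, and summed to 122 to 129 CPM with sh1, 114 to 129 CPM with sh2 and 77.6 to 81.2 CPM in control. Apart from COL1A1, no fibroblast marker exceeded 3 counts in any library, and the list summed to 53.5 to 59.7 CPM with sh1, 66.5 to 69.9 CPM with sh2 and 48.2 to 50.8 CPM in control. The 3 endothelium markers summed to 14.8 to 20.4 CPM with sh1, 14.8 to 17.3 CPM with sh2 and 12.9 to 15.0 CPM in control. The first 3 sums differed between the hairpin groups and control with no overlap, while the endothelium sums overlapped control, and their part in the results below was not tested. In bulk RNA, fewer cells of a type and less RNA per cell cannot be told apart.

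TNRC6A had the largest difference of the 10 genes from control, and it was higher with both hairpins. XPO5 was lower with both, and TARBP2 was higher with both. DGCR8, DICER1 and AGO1 were higher chiefly with sh1, and DROSHA was lower with sh1 and higher with sh2. For AGO2, AGO3 and AGO4 no log2 fold change was larger than 0.26 in size. With sh1 against control, 9 of the 10 genes were called (6 higher, 3 lower) at an adjusted p below 0.05 in edgeR's quasi-likelihood test, beside 69.3% of all tested genes (34.7% higher, 34.6% lower). With sh2 against control, 5 were called (4 higher, 1 lower), beside 68.5% of all tested genes (34.2% higher, 34.3% lower). Between sh1 and sh2, 7 were called (4 higher with sh1, 3 lower), beside 69.8% of all tested genes (34.2% higher, 35.6% lower). Since about 7 in 10 of all genes were called in each comparison, a call alone sets no gene of the machinery apart.

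The sizes were modest. None of the 10 genes reached a 2-fold difference in any comparison, against 9.15% of tested genes called at that size for sh1 against control, 7.75% for sh2 against control and 8.28% for sh1 against sh2. The median absolute log2 fold change of the 10 genes was 0.28 with sh1 against control (0.32 over all tested genes) and 0.09 with sh2 against control (0.30 over all tested genes). Between sh1 and sh2 it was 0.23, against 0.31 over all tested genes. The signed medians were 0.20, 0.04 and 0.12 in the same order, and those of all tested genes lay between 0.00 and 0.01. With limma on log2(TPM + 1) in place of counts, the 9 calls of sh1 against control split into 5 higher and 4 lower. The comparisons of sh1 and of sh2 with control share the control libraries, so their values stand side by side here and are not independent.

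**Figure D1:**
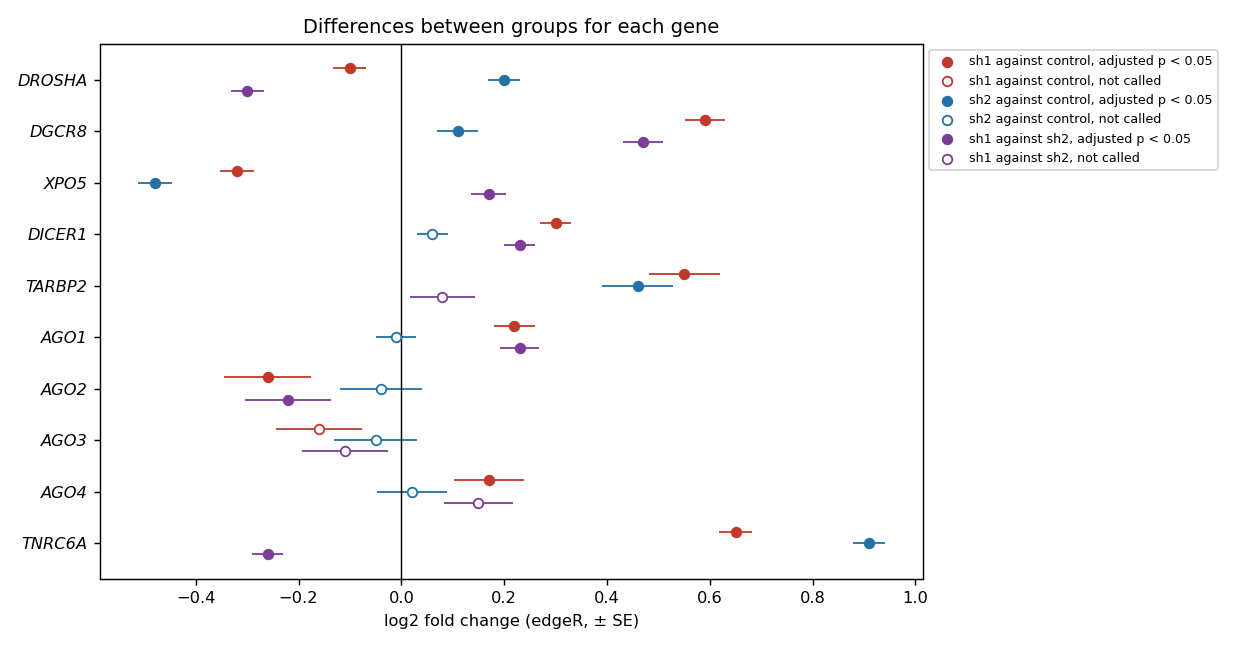
Log2 fold change of each of the 10 genes (edgeR, bars give ± SE) for sh1 against control, sh2 against control and sh1 against sh2, with filled points for an adjusted p below 0.05 and open points for genes not called. TNRC6A lies at 0.65 with sh1 and 0.91 with sh2, XPO5 at -0.32 and -0.48, and DROSHA on opposite sides of 0.

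Levels are given as TPM, the deposited value per transcript length that allows genes to be compared. In control cells the order was DROSHA (91.5 ± 1.99 TPM), XPO5 (73.7 ± 0.602), DICER1 (38.5 ± 1.02), TNRC6A (35.6 ± 0.82), DGCR8 (33.1 ± 0.642), TARBP2 (24.7 ± 0.525), AGO1 (23.6 ± 0.492), AGO2 (13.1 ± 0.577), AGO3 (10.2 ± 0.777) and AGO4 (7.39 ± 0.474), each as mean ± SD with n = 3. No 2 neighbours in that order overlapped in their libraries. DROSHA stood at percentile 84.2 of the tested genes in control and AGO4 at percentile 25, so the nuclear nuclease and the exporter stood high in the range and AGO2, AGO3 and AGO4 in its lower part. With sh1, TNRC6A and DGCR8 both stood above DICER1, and the libraries of AGO2 and AGO3, and of AGO3 and AGO4, overlapped. With sh2, TNRC6A stood second, above XPO5, and the libraries of DGCR8 and TARBP2 overlapped.

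**Figure D2:**
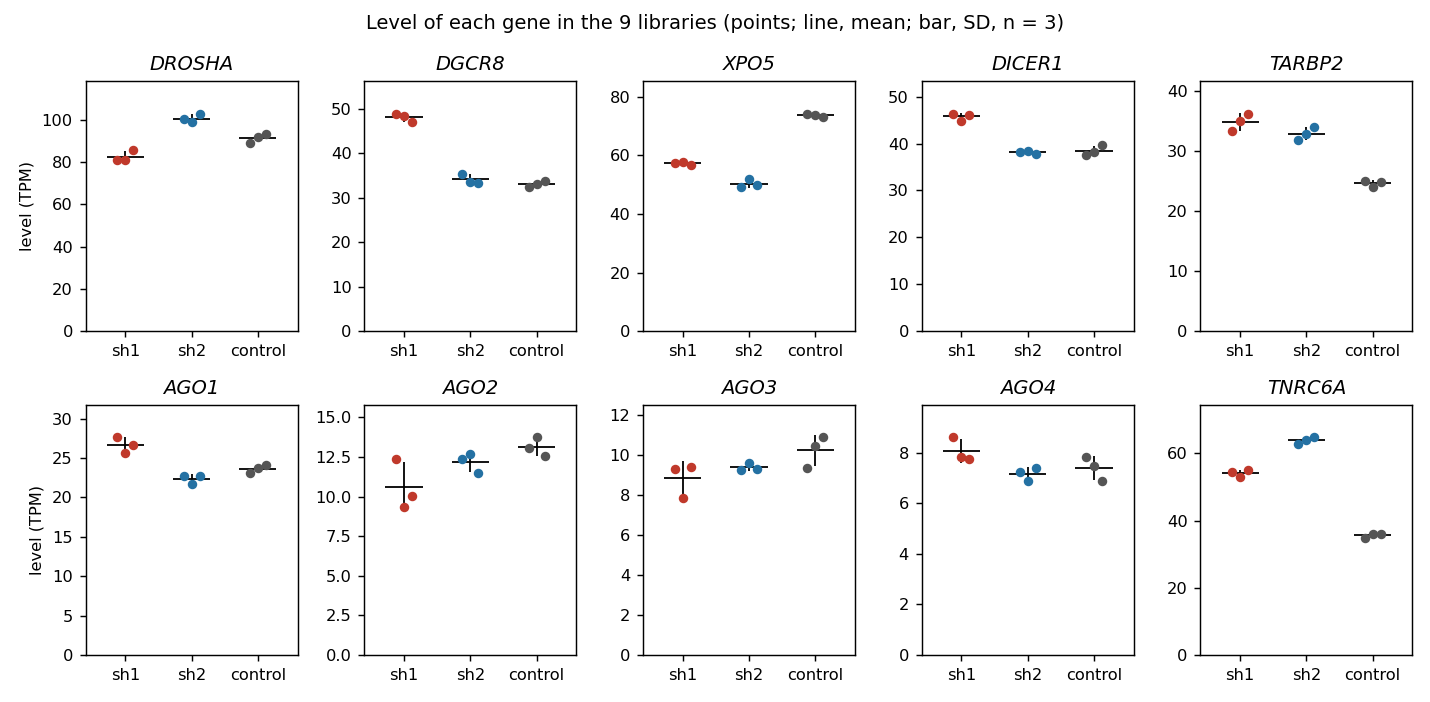
Level of each gene in TPM in the 9 libraries, by group, with the mean as a line and the SD as a bar (n = 3); each panel has its own axis from 0. TNRC6A is higher and XPO5 lower in all 6 hairpin libraries than in the 3 control libraries, and DGCR8, DICER1 and AGO1 are highest in the sh1 libraries.

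DROSHA, the nuclear RNase III, had 80.9, 81.2 and 85.9 TPM with sh1, 100.3, 98.8 and 103 TPM with sh2 and 89.3, 92.1 and 93.2 TPM in control. The 3 groups did not overlap, with control between the hairpins. The log2 fold change was -0.10 ± 0.032 for sh1 against control (SE, edgeR adjusted p = 0.00732) and 0.20 ± 0.031 for sh2 against control (adjusted p = 1.13e-06). Between the hairpins it was -0.30 ± 0.032 (adjusted p = 8.13e-10), which was the only such reversal among the 10 genes. The call with sh1 was lost under upper quartile scaling (-0.05, adjusted p = 0.145) and without the first sh1 library (-0.08, adjusted p = 0.063).

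DGCR8, the RNA-binding partner that DROSHA needs to cut primary microRNAs, had 48.9, 48.4 and 47.0 TPM with sh1, 35.4, 33.6 and 33.4 TPM with sh2 and 32.5, 33.2 and 33.7 TPM in control. The sh1 libraries stood clear of all others, while sh2 and control overlapped in TPM. DGCR8 rose 1.5-fold with sh1 (log2 0.59 ± 0.039, edgeR adjusted p = 2.49e-14) and was 1.39-fold higher with sh1 than with sh2 (log2 0.47 ± 0.038, adjusted p = 2.3e-12). For sh2 against control the log2 fold change was 0.11 ± 0.040 (adjusted p = 0.0146). That call was lost without the first sh2 library (0.09, adjusted p = 0.0776), without the first control library (0.10, adjusted p = 0.0568), with DESeq2 (0.11, adjusted p = 0.0962) and with limma on log2(TPM + 1) (0.04, adjusted p = 0.363).

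The Microprocessor needs both proteins, and the ratio of their mRNAs differed between groups. DROSHA over DGCR8 was 1.72 ± 0.0949 with sh1, 2.95 ± 0.126 with sh2 and 2.76 ± 0.0112 in control (TPM ratio, SD, n = 3). The 3 groups did not overlap, and the sh1 libraries were the lowest. The DGCR8 transcript is itself known to hold hairpins that the Microprocessor cuts, a feedback on its own mRNA. The mature microRNAs that RefSeq (GRCh38.p14) places in the gene are shown here because they mark those hairpins, written 5′ to 3′ with the seed, bases 2 to 8, in capitals. The first lies at chr22:20085797-20085818, the second at chr22:20086072-20086093 and the third at chr22:20086112-20086129, all on the plus strand.
hsa-miR-3618: uGUCUACAuuaaugaaaagagc
hsa-miR-1306-5p: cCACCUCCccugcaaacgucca
hsa-miR-1306-3p: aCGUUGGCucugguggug
Their levels were not measured, and DICER1 was the only other one of the 10 genes with a mature microRNA inside it.

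XPO5, the Ran-dependent exporter of microRNA precursors and short hairpins, had 57.4, 57.7 and 56.6 TPM with sh1, 49.2, 51.8 and 49.9 TPM with sh2 and 74.2, 73.9 and 73.0 TPM in control. The control libraries were the highest and the sh2 libraries the lowest, with no overlap between any groups. XPO5 fell to 0.8 of control with sh1 (log2 -0.32 ± 0.033, edgeR adjusted p = 9.21e-10) and to 0.71 of control with sh2 (log2 -0.48 ± 0.033, adjusted p = 1e-13). It was higher with sh1 than with sh2 (log2 0.17 ± 0.034, adjusted p = 9.41e-05). XPO5 was the only gene of the 10 that was called lower with sh2.

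POLR1C, a subunit of RNA polymerases I and III, overlaps XPO5 in the RefSeq annotation. Its log2 fold change was -0.20 ± 0.053 with sh1 (edgeR adjusted p = 0.00142) and -0.40 ± 0.053 with sh2 (adjusted p = 9.54e-08). At 35.7 ± 1.98 CPM with sh1, 31.0 ± 0.51 CPM with sh2 and 40.9 ± 1.61 CPM in control, it was well below XPO5 at 129 ± 1.96, 115 ± 3.6 and 160 ± 3.08 CPM. No source used here says if the counting was stranded, so reads from the shared stretch cannot be told apart. POLR1C, and MAP3K12 beside TARBP2, were chosen for their position after values were seen.

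DICER1, the cytoplasmic RNase III, had 46.4, 44.9 and 46.1 TPM with sh1, 38.2, 38.5 and 37.9 TPM with sh2 and 37.6, 38.2 and 39.6 TPM in control. The sh1 libraries were above all others, and those of sh2 and control overlapped in TPM, though not in CPM. DICER1 rose 1.23-fold with sh1 against control (log2 0.30 ± 0.030, edgeR adjusted p = 4.71e-10) and was 1.18-fold higher with sh1 than with sh2 (log2 0.23 ± 0.030, adjusted p = 4.34e-08). With sh2 against control the log2 fold change of 0.06 ± 0.030 was not called (adjusted p = 0.0695), and it was called only under upper quartile scaling (0.08, adjusted p = 0.0203).

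TARBP2, the double-stranded RNA-binding partner of DICER1, had 33.4, 35.0 and 36.3 TPM with sh1, 32.0, 32.9 and 34.1 TPM with sh2 and 25.1, 24.1 and 24.9 TPM in control. All 6 hairpin libraries were above the 3 control libraries, and the hairpins overlapped each other. TARBP2 rose 1.46-fold with sh1 (log2 0.55 ± 0.069, edgeR adjusted p = 3.71e-08) and 1.38-fold with sh2 (log2 0.46 ± 0.069, adjusted p = 6.63e-07). Between the hairpins the log2 fold change was 0.08 ± 0.064 and was not called (adjusted p = 0.261). TARBP2 rests on 235 to 367 counts per library, and MAP3K12, a kinase gene that overlaps it, went the other way with sh1 at -0.62 ± 0.102 (adjusted p = 3.45e-06) and the same way with sh2 at 0.44 ± 0.087 (adjusted p = 4.58e-05). MAP3K12 was low, at 7.39 ± 0.808 CPM with sh1, 15.5 ± 0.995 CPM with sh2 and 11.4 ± 0.48 CPM in control, beside 24.1 ± 1.2, 22.8 ± 0.618 and 16.5 ± 0.902 CPM for TARBP2.

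PRKRA, the paralog of TARBP2 that also binds DICER1, had 56.9, 63.5 and 55.5 TPM with sh1, 66.1, 71.7 and 67.9 TPM with sh2 and 76.1, 66.3 and 72.0 TPM in control. Its sh1 libraries were below all others, and sh2 and control overlapped. PRKRA fell with sh1 (log2 -0.24 ± 0.054, edgeR adjusted p = 0.000278) and was not called with sh2 (0.01 ± 0.051, adjusted p = 0.885). The ratio of the mRNAs of these DICER1 partners differed between groups, and their proteins were not measured. PRKRA over TARBP2 was 1.68 ± 0.143 with sh1, 2.08 ± 0.0953 with sh2 and 2.89 ± 0.142 in control (TPM ratio, SD, n = 3). DICER1 over TARBP2 was 1.31 ± 0.0646 with sh1, 1.16 ± 0.0432 with sh2 and 1.56 ± 0.0506 in control. In both ratios the groups did not overlap and control was the highest.

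The 4 Argonautes bind the guide strand, and AGO2 is the one best known for cutting targets that pair fully with it, as an shRNA is designed to do. AGO1 had 27.6, 25.6 and 26.7 TPM with sh1, 22.7, 21.8 and 22.8 TPM with sh2 and 23.1, 23.7 and 24.1 TPM in control. The sh1 libraries were above all others, and those of sh2 lay just below control in TPM but overlapped it in CPM. AGO1 rose 1.17-fold with sh1 against control (log2 0.22 ± 0.039, edgeR adjusted p = 7.99e-06) and was 1.17-fold higher with sh1 than with sh2 (log2 0.23 ± 0.038, adjusted p = 4.16e-06). With sh2 against control the log2 fold change was -0.01 ± 0.039 (adjusted p = 0.86, not called).

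AGO2 had 12.4, 9.34 and 10.1 TPM with sh1, 12.4, 12.7 and 11.5 TPM with sh2 and 13.1, 13.7 and 12.6 TPM in control. The first sh1 library sat among the sh2 libraries, the other two were the lowest, and on the CPM scale sh1 overlapped control. AGO2 was called lower with sh1 against control (log2 -0.26 ± 0.084, edgeR adjusted p = 0.00652) and against sh2 (log2 -0.22 ± 0.084, adjusted p = 0.0202), and not with sh2 against control (-0.04 ± 0.080, adjusted p = 0.657). Without the second sh1 library the first call was lost (-0.19, adjusted p = 0.0675). The call between the hairpins was lost without the second sh1 library (-0.14, adjusted p = 0.165), without the third (-0.18, adjusted p = 0.0921), without the second sh2 library (-0.19, adjusted p = 0.0837), with DESeq2 (-0.22, adjusted p = 0.0867) and with limma on log2(TPM + 1) (-0.19, adjusted p = 0.0639).

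AGO3 had 9.29, 7.86 and 9.41 TPM with sh1, 9.25, 9.61 and 9.33 TPM with sh2 and 9.39, 10.5 and 10.9 TPM in control. All groups overlapped, and AGO3 was the only gene of the 10 with no call in any comparison. Its log2 fold changes were -0.16 ± 0.084 for sh1 against control (edgeR adjusted p = 0.0916), -0.05 ± 0.081 for sh2 against control (adjusted p = 0.592) and -0.11 ± 0.084 for sh1 against sh2 (adjusted p = 0.253). The sh1 value was called without the first control library (-0.21, adjusted p = 0.048) and with limma on log2(TPM + 1) (-0.19, adjusted p = 0.0419).

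AGO4 had 8.61, 7.83 and 7.75 TPM with sh1, 7.23, 6.87 and 7.39 TPM with sh2 and 7.82, 7.46 and 6.88 TPM in control. The sh1 and control libraries overlapped in TPM. The log2 fold change of 0.17 ± 0.068 for sh1 against control was called (edgeR adjusted p = 0.0277), and 0.02 ± 0.068 for sh2 against control was not (adjusted p = 0.793). The sh1 call was lost without the first sh1 library (0.13, adjusted p = 0.138), without the second control library (0.17, adjusted p = 0.0501), without the third control library (0.12, adjusted p = 0.162), with DESeq2 (0.16, adjusted p = 0.146) and with limma on log2(TPM + 1) (0.11, adjusted p = 0.187). Between the hairpins 0.15 ± 0.067 was not called (adjusted p = 0.0504), but it was under 9 alternatives at adjusted p of 0.0208 to 0.0493. These were total count and upper quartile scaling, no filter, the table number as a replicate block (0.15, adjusted p = 0.049), and leaving out the third sh1 library, the third sh2 library or any 1 control library.

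The summed level of the 4 Argonautes was 54.1 ± 3.66 TPM with sh1, 51.1 ± 0.324 TPM with sh2 and 54.4 ± 0.995 TPM in control, and sh1 overlapped both other groups. The makeup of that sum differed with sh1. AGO1 made up 49.3 ± 1.45% of it with sh1, 43.8 ± 0.993% with sh2 and 43.4 ± 0.704% in control, and AGO2 made up 19.5 ± 1.65%, 23.8 ± 1.21% and 24.2 ± 0.897% in the same order. For both genes the sh1 libraries lay outside the range of the other 6, while sh2 and control overlapped. AGO3 made up 16.3 ± 0.997% with sh1, 18.4 ± 0.46% with sh2 and 18.8 ± 1.22% in control, and AGO4 14.9 ± 0.549%, 14.0 ± 0.505% and 13.6 ± 1.01%. The Argonautes are paralogs, so reads that match several of them may have been divided between them by the authors' estimation of counts. The related PIWI proteins, which act with germline small RNAs, were nearly absent: 1 of 4 genes passed the filter (PIWIL2, at most 34 counts in a library) and it was not called.

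**Figure D3:**
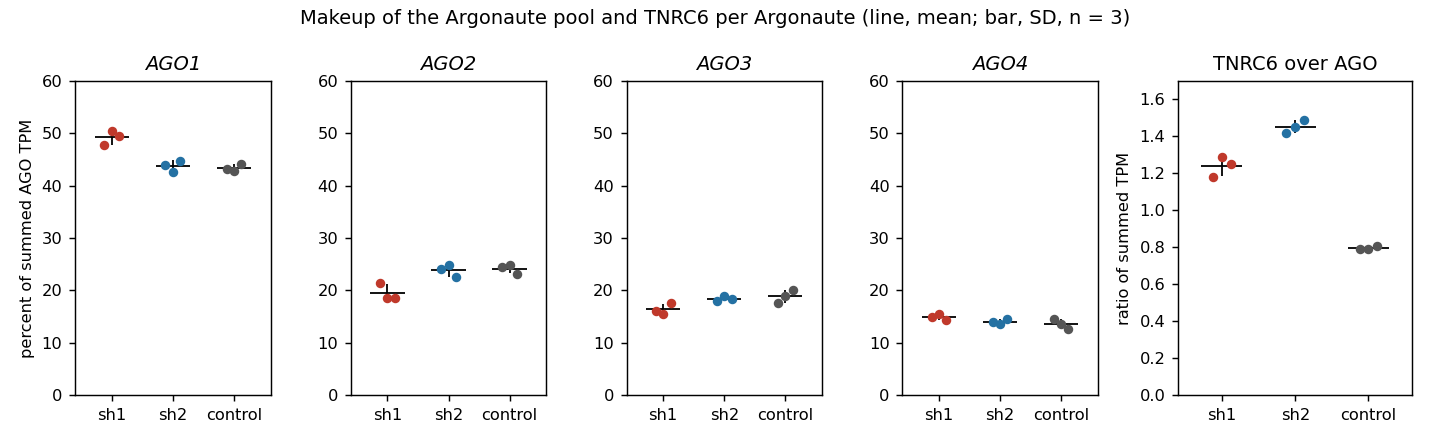
Percent of the summed Argonaute TPM contributed by each of the 4 genes, and the ratio of summed TNRC6 TPM to summed Argonaute TPM, in each library by group (line, mean; bar, SD, n = 3). AGO1 takes 47.7% to 50.5% with sh1 and at most 44.7% elsewhere, and the TNRC6 to Argonaute ratio is lowest in control.

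TNRC6A, also known as GW182, is the scaffold that links Argonaute to the deadenylases. It had 54.4, 53.1 and 55.0 TPM with sh1, 62.7, 64.1 and 64.8 TPM with sh2 and 34.7, 36.1 and 36.1 TPM in control. The groups were far apart, with sh2 the highest and control the lowest. TNRC6A rose 1.57-fold with sh1 (log2 0.65 ± 0.032, edgeR adjusted p = 2.83e-17) and 1.88-fold with sh2 (log2 0.91 ± 0.031, adjusted p = 5.06e-21), and was lower with sh1 than with sh2 (log2 -0.26 ± 0.030, adjusted p = 6.1e-09). By level it held the third place among the 10 genes with sh1, the second with sh2 and the fourth in control.

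The paralog TNRC6B had 12.8, 11.6 and 11.7 TPM with sh1, 9.9, 9.26 and 10.3 TPM with sh2 and 6.72, 6.81 and 7.15 TPM in control. All hairpin libraries were above control, as for TNRC6A, but here sh1 was the higher of the hairpins. TNRC6B rose with sh1 (log2 0.85 ± 0.045, edgeR adjusted p = 1.35e-16) and with sh2 (log2 0.59 ± 0.046, adjusted p = 1.36e-12), and was higher with sh1 than with sh2 (log2 0.26 ± 0.042, adjusted p = 2.32e-06). TNRC6C was below 1 TPM in every library and was not called with sh1 (-0.04 ± 0.177, adjusted p = 0.858) or with sh2 (-0.34 ± 0.182, adjusted p = 0.101). The summed TNRC6 level was 67.0 ± 1.39 TPM with sh1, 74.3 ± 1.34 TPM with sh2 and 43.3 ± 0.938 TPM in control. Against the Argonaute sum this gave ratios of 1.24 ± 0.0594 with sh1, 1.45 ± 0.0335 with sh2 and 0.796 ± 0.0114 in control, with no overlap. TNRC6 mRNA thus stood above Argonaute mRNA in the hairpin libraries and below it in control.

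The sequence before the transcription start is shown for TNRC6A and XPO5, which rose and fell with both hairpins. RefSeq (GRCh38.p14) had a promoter entry for 9 of the 10 genes, and the 250 bases before the start are given 5′ to 3′ along the gene. That of TNRC6A lies at chr16:24729401-24729650 on the plus strand and that of XPO5 at chr6:43576039-43576288 on the minus strand. Capitals mark matches, on either strand, to the motifs searched.
TNRC6A: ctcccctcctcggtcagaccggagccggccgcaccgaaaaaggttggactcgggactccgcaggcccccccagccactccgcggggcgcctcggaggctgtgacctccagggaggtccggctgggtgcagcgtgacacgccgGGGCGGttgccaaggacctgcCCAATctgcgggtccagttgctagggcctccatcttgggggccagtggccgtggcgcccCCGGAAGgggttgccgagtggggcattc
XPO5: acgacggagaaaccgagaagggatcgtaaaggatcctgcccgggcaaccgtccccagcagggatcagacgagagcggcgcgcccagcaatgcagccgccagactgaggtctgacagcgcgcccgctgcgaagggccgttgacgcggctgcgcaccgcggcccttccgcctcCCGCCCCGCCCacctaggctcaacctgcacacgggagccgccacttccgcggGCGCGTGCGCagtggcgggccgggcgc
Both stretches are rich in G and C, at 71.6% for TNRC6A and 72.4% for XPO5. TNRC6A held 1 match each to the NF-Y box CCAAT, the GC box GGGCGG and the ETS letters CCGGAAG, which occurred in 32%, 42.5% and 8.48% of 34943 RefSeq promoters over the same length. XPO5 held 2 GC boxes that share a base and 1 match to the NRF1 site, which 5.04% of promoters hold. Neither held the E-box CACGTG or the cyclic AMP response element TGACGTCA, present in 6.32% and 1.63%. A match is only a match of letters.

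The 3 genes whose profiles over the 9 libraries were nearest to that of TNRC6A, by Euclidean distance of centred log2 CPM, were KIF23 (0.094), MCM6 (0.101) and CIT (0.117). KIF23 encodes a kinesin of the midbody, MCM6 a subunit of the replicative helicase and CIT a kinase of cytokinesis. With 1 sample per group, such a profile mostly follows the levels of the 3 groups, and shared regulation was not tested. KIF23 rose by a log2 of 0.61 ± 0.033 with sh1 (edgeR adjusted p = 3.61e-16) and 0.91 ± 0.032 with sh2 (adjusted p = 1.01e-20). MCM6 rose by 0.70 ± 0.034 (adjusted p = 1.84e-17) and 0.92 ± 0.033 (adjusted p = 1.51e-20) in the same order.

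Around the core genes, 7 lists of partners were counted, and each is to be read beside the 69.3% and 68.5% of all genes called; rose and fell stand for calls by edgeR. Of 17 tested Microprocessor cofactors, 12 rose and 1 fell with sh1 (median log2 0.30), and 11 rose and 5 fell with sh2 (median 0.28). ERH, a small protein that binds DGCR8, had 577, 566 and 581 TPM with sh1, 196, 195 and 186 TPM with sh2 and 425, 429 and 396 TPM in control. It rose with sh1 (log2 0.51 ± 0.035) and fell with sh2 (log2 -1.05 ± 0.040), and the groups did not overlap. METTL3, the methyltransferase that marks primary microRNAs, also rose with sh1 (log2 0.25 ± 0.047) and fell with sh2 (log2 -0.72 ± 0.053).

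Of 13 genes of the Ran cycle and the other exportins, 6 rose and 3 fell with sh1 (median 0.08), and 7 rose and 5 fell with sh2 (median 0.09). XPOT, the tRNA exporter, fell with both hairpins as XPO5 did (log2 -0.79 ± 0.029 with sh1, -0.69 ± 0.028 with sh2). RANBP1, which helps Ran hydrolyse GTP in the cytoplasm, rose with both (log2 0.56 ± 0.032 and 0.82 ± 0.031), and so did NUTF2, which returns Ran to the nucleus (0.57 ± 0.034 and 0.50 ± 0.034).

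Of 17 DICER1 partners and chaperones of Argonaute loading, 11 rose and 4 fell with sh1 (median 0.17), and 14 rose and 1 fell with sh2 (median 0.37). Most of the 17 are general heat shock proteins and cochaperones, so the counts mostly describe those. Between sh1 and sh2, 2 were higher and 12 lower with sh1, where 34.2% of all tested genes were called higher and 35.6% lower. HSPA8, a heat shock protein that takes part in opening Argonaute for the duplex, had 1497, 1523 and 1552 TPM with sh1, 1622, 1624 and 1646 TPM with sh2 and 690.2, 678.6 and 710.2 TPM in control. Its log2 fold change was 1.18 ± 0.025 with sh1 and 1.30 ± 0.025 with sh2, and that of HSP90AA1, a chaperone of the same step, was 0.95 ± 0.023 and 0.93 ± 0.023. TSN, a subunit of the C3PO nuclease that helps clear the passenger strand, fell with sh1 (log2 -0.92 ± 0.045) and rose with sh2 (log2 0.37 ± 0.038).

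Of 17 tested cofactors of Argonaute and TNRC6, 10 rose and 2 fell with sh1 (median 0.18), and 10 rose and 4 fell with sh2 (median 0.14). AJUBA, a LIM protein of microRNA silencing complexes, fell with both (log2 -1.50 ± 0.039 with sh1, -1.45 ± 0.038 with sh2). ANKRD52, the subunit of the phosphatase that removes phosphate from AGO2, had 155, 149 and 156 TPM with sh1, 47.9, 44.8 and 51.0 TPM with sh2 and 60.9, 66.4 and 66.6 TPM in control. It rose 2.45-fold with sh1 (log2 1.29 ± 0.035) and fell to 0.78 of control with sh2 (log2 -0.37 ± 0.037). GIGYF1 rose with both (log2 0.92 ± 0.034 and 0.56 ± 0.034).

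Of 26 tested genes of deadenylation, decapping and decay, 11 rose and 10 fell with sh1 (median 0.00), and 14 rose and 8 fell with sh2 (median 0.12). DCP1A, a cofactor of the decapping enzyme, had 18.2, 18.6 and 19.5 TPM with sh1, 16.5, 15.7 and 17.2 TPM with sh2 and 48.7, 48.9 and 50.1 TPM in control. It fell with both (log2 -1.35 ± 0.041 and -1.52 ± 0.041), while the poly(A)-binding protein gene PABPC4 rose with both (log2 0.92 ± 0.029 and 0.53 ± 0.030). LSM1, of the ring that binds deadenylated mRNA, fell with sh2 (log2 -0.91 ± 0.078) and was not called with sh1 (0.12 ± 0.068).

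Of 11 genes of microRNA tailing, trimming and turnover, 2 rose and 8 fell with sh1 (median -0.25), and 5 rose and 5 fell with sh2 (median 0.09). PARN, a 3′ exonuclease of microRNA trimming, had 25.9, 22.3 and 24.5 TPM with sh1, 52.5, 49.4 and 54.7 TPM with sh2 and 59.7, 57.7 and 62.6 TPM in control. Its log2 fold change was -1.27 ± 0.052 with sh1 and -0.14 ± 0.044 with sh2. USB1, another 3′ exonuclease, fell with both (log2 -0.41 ± 0.036 and -0.64 ± 0.036), and ERI1 fell with sh1 (log2 -0.57 ± 0.056) and rose with sh2 (log2 0.24 ± 0.050).

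**Figure D4:**
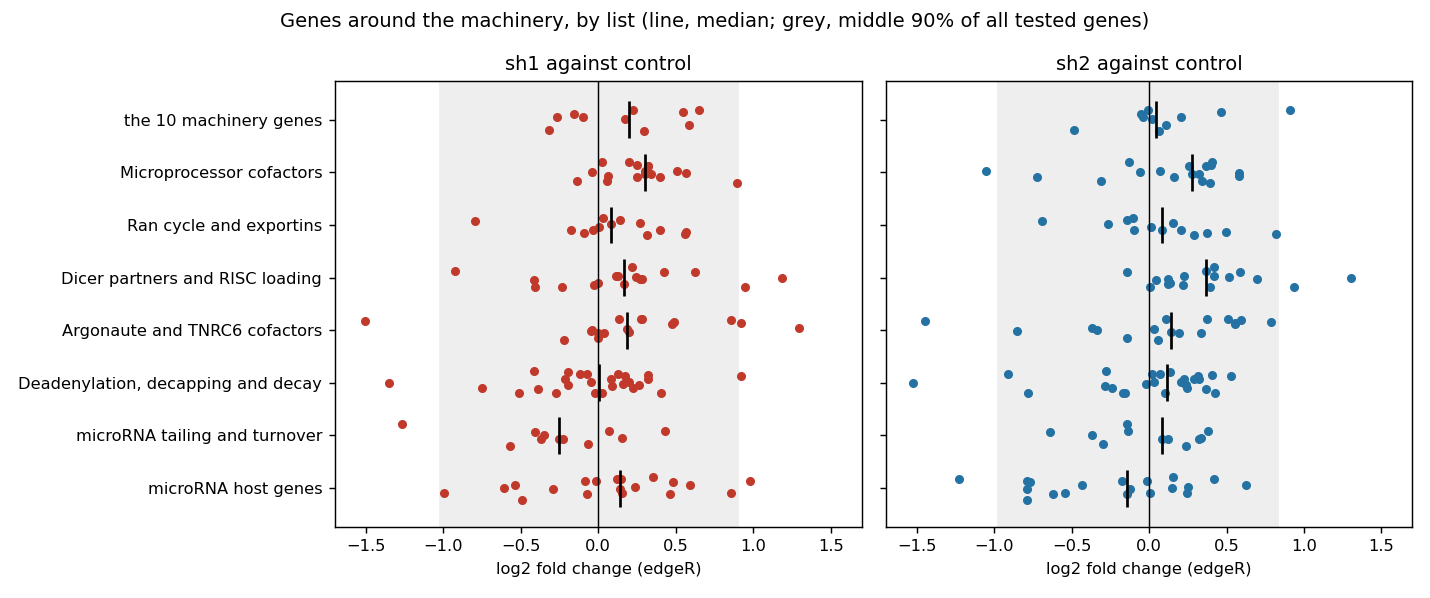
Log2 fold change (edgeR) of each tested gene of the machinery and of the 7 lists around it, for sh1 against control on the left and sh2 against control on the right; black lines are list medians and the grey band holds the middle 90% of all tested genes. The list of tailing, trimming and turnover has its median at -0.25 with sh1 and 0.09 with sh2, and that of the host genes at 0.14 and -0.14.

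MicroRNAs themselves were not measured, but the genes that carry some of them in their introns were. Members of 4 families are shown because those of a family have the same seed, here bases 2 to 8 in capitals, as listed by RefSeq. The miR-103 family is known to repress DICER1, and the let-7 family is known to target DICER1 as well. In the order of the lines below, the host genes are CTDSPL and CTDSP2, CTDSP1, PANK3 and PANK2, PANK1, MCM7, MCM7, WDR82, HUWE1 and HUWE1.
hsa-miR-26a-5p: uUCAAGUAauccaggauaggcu
hsa-miR-26b-5p: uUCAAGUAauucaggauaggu
hsa-miR-103a-3p: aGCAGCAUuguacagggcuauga
hsa-miR-107: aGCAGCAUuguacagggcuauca
hsa-miR-93-5p: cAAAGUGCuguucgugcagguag
hsa-miR-106b-5p: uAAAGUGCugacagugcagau
hsa-let-7g-5p: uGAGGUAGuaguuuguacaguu
hsa-let-7f-5p: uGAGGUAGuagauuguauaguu
hsa-miR-98-5p: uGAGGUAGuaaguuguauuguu
Of 29 host genes listed, 20 had a row and 19 were tested: 11 rose and 6 fell with sh1 (median 0.14), and 6 rose and 11 fell with sh2 (median -0.14). Between the hairpins, 12 were higher and 3 lower with sh1 than with sh2, beside 34.2% and 35.6% of all tested genes.

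Hosts of the same seed did not move as one. Of the miR-26 hosts, CTDSP1 had a log2 fold change of 0.15 ± 0.043 with sh1 and -1.23 ± 0.051 with sh2, CTDSP2 had -0.49 ± 0.035 and -0.79 ± 0.036, and CTDSPL had 0.98 ± 0.046 and -0.01 ± 0.052 (not called). Of the miR-103 hosts, PANK3 fell with both, to 0.5 of control with sh1 and 0.69 of control with sh2, PANK1 had log2 fold changes of 0.48 ± 0.073 and -0.77 ± 0.085, and PANK2 had -0.07 ± 0.056 (not called) and -0.14 ± 0.056. The PANK2 call with sh2 was lost without the first sh2 library (-0.07, edgeR adjusted p = 0.285), without the first control library (-0.11, adjusted p = 0.11), with DESeq2 (-0.15, adjusted p = 0.0888) and under upper quartile scaling (-0.12, adjusted p = 0.0557). MCM7, host of miR-93 and miR-106b, rose with both (log2 0.59 ± 0.030 and 0.62 ± 0.030). Of the let-7 hosts, WDR82 rose with both (log2 0.35 ± 0.033 and 0.15 ± 0.033), and HUWE1 rose with sh1 (log2 0.14 ± 0.027) and fell with sh2 (log2 -0.12 ± 0.027). CTDSP2, PANK1, PANK2, MCM7, WDR82 and HUWE1 were picked for their shared seeds after values were seen.

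**Figure D5:**
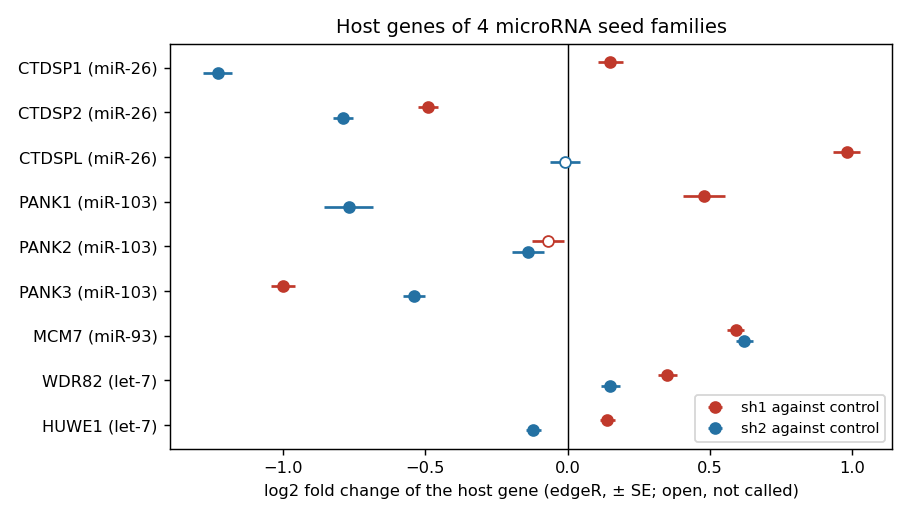
Log2 fold change (edgeR, bars give ± SE) of 9 genes that host microRNAs of 4 seed families, for sh1 against control and sh2 against control, with open points for genes not called. Within the miR-26 and miR-103 families the hosts lie on both sides of 0 with sh1, and MCM7 lies near 0.6 with both hairpins.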

How the data were processed

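The submitters' processing notes list the build hg19 and, with no role stated, DESeq2 1.4.5, RSEM 1.2.12, HISAT2 2.0.4 and Bowtie2 2.2.5. Per the file headers, each deposited table gives a transcript length, an expected count and a TPM value for 19266 Entrez genes. TPM values deposited by the authors were used for levels and ratios. RefSeq (GRCh38.p14) gave symbols to 19223 genes, and its coordinates and sequences are not those of hg19.

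Expected counts were rounded and fitted in R 4.3.3 with edgeR 4.0.16: filterByExpr (13580 genes), TMM scaling, 1 quasi-likelihood fit over all 9 libraries with group as the only term, Benjamini-Hochberg adjustment over all tested genes, and calls at an adjusted p below 0.05. The SE is the absolute log2 fold change over the square root of the F statistic. CPM used effective library sizes. The tables of a sample differed by more than counting noise (chi-square per degree of freedom 1.49 to 2.03, mean count of 20 or more), which does not make them separate cultures. Alternatives were DESeq2 1.42.0, limma 3.58.1 on log2(TPM + 1) and log2(TPM + 0.1) where the mean TPM was 1 or more, other scalings, no filter, the table number as a block and leaving out each table.

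The members and lists were chosen with earlier results of these data known. Named were all 10 genes, the paralogs, the 3 genes of each list with the largest log2 fold change against control among those called, and the 3 nearest profiles. Some items that these rules name are not reported here. The targeted transcript was not analysed here.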

Additional observations from a re-analysis of the deposited data

Results flagged for a closer look

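Some genes were called in opposite directions against control and differed between sh1 and sh2 in edgeR's quasi-likelihood test. Among the 10 machinery genes this was DROSHA alone, with a log2 fold change of -0.30 for sh1 against sh2 (-0.10 with sh1 and 0.20 with sh2 against control), where the sh1 call was lost under upper quartile scaling and without the first sh1 library. Among the Microprocessor cofactors, the sh1 against sh2 values were 1.56 for ERH and 0.97 for METTL3. Among the genes of Argonaute loading and regulation they were -1.29 for TSN and 1.66 for ANKRD52, and among the trimming enzymes -0.81 for ERI1. Among the named microRNA host genes they were 1.38 for CTDSP1, 1.24 for PANK1 and 0.26 for HUWE1. Of the host genes not named above, COPZ1 (1.08) and R3HDM1 (-0.76) also met the rule. MAP3K12, which overlaps TARBP2, had -1.06. The CTDSP1 call with sh1 was lost with limma on log2(TPM + 1) (0.12, adjusted p = 0.0656). Apart from COPZ1 and R3HDM1, these genes were picked from the named genes alone. Each group is 1 sample, and whether the hairpins or the single samples differ cannot be told apart.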

How the results depend on the processing

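The count of the 10 genes called stayed within 1.5 times its value under every alternative. Leaving out 1 library gave 7 to 10 calls with sh1 against control (9 with all), 4 to 5 with sh2 against control (5 with all) and 6 to 8 between the hairpins (7 with all). DESeq2 gave 8, 4 and 6. Of 540 values of the 10 genes under alternatives, 507 counted as unchanged, 20 lost their call, 13 gained one and 0 reversed. Unchanged means the same side of the threshold, and reversed means a change of sign where either fit made a call. A change of sign between uncalled values therefore counted as unchanged. For summed tables, which give no test, unchanged means a move of at most 1 SE. Of 1992 values of the other named genes, 1969 counted as unchanged by the same rule, 10 lost their call, 13 gained one and 0 reversed. The median shift of the log2 fold changes of the tested genes from the main fit was largest with limma on log2(TPM + 0.1). It was -0.067 for sh2 against control, and that alternative differs from the main fit in unit, filter and model as well as scaling.

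The table numbers are shared between groups, and deviations of same-numbered tables correlated at -0.0612 to 0.146. Between sh1 and sh2 the correlations were 0.0793 to 0.146. Tables with different numbers were not compared, so whether same-numbered tables share more than a number was not tested. With the table number as a replicate block the counts were 9, 5 and 8. With the tables of each sample summed, no log2 fold change of the 10 genes moved by more than 0.01, and no test is possible with 1 sample per group. Depth limits AGO2, AGO3, AGO4 and TARBP2 most, at 179 to 371 counts per library, and no call is shown to have the support of replicate cultures.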
